A study of Mus musculus with 6 samples.

Results

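Nuclei that hold RNA of both a GABA-synthesising enzyme and Baiap3 were followed here through the forebrain of the postnatal day 16 (P16) mouse. They were chosen by measured values. A nucleus was taken if at least 3 unique molecular identifiers (UMIs, each standing for 1 captured RNA molecule) came from Gad1 and Gad2 together and at least 1 from Baiap3. It also had at most 1 UMI of Slc17a6 and Slc17a7 together, and at most 1 of Rgs9, of Lhx6 and of Sox11, at most 2 of Sst and at most 9 of Adarb2. These limits found 436 nuclei among 75878 barcodes, of which 75867 had under 10% mitochondrial UMIs.

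The nuclei came from 3 wild-type (WT) and 3 Npc1-/- mice, untreated, with 1 library per mouse. Npc1-/- mice carry 2 copies of the Npc1nih null allele, which removes the cholesterol transporter of late endosomes and lysosomes in every cell of the body. They were F1 hybrids of BALB/cJ and C57BL6/J parents, and the controls were WT mice of the same age. Forebrains were dissected, flash frozen and homogenised, so that only nuclear RNA was read and the region of origin within the forebrain was not kept. The count matrix marks its 6 libraries by a number alone, and no key from that number to a mouse was used here. The libraries are therefore called library 1 to library 6, WT and Npc1-/- were not compared, and each value is given per library or as the sum over all 6 with a 95% counting interval. Such intervals cover counting error only and do not measure the spread between mice.

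GABA is the main inhibitory transmitter of the brain. Gad1 and Gad2 encode the enzymes that make it from glutamate, and Slc32a1 the transporter that loads it into synaptic vesicles. Baiap3 is a Munc13-related protein with a role in the traffic and release of dense-core vesicles, which carry neuropeptides, and its RNA is best known from hypothalamus, amygdala and other subcortical sites. The limits on the other genes were set against glutamatergic neurons (Slc17a6, Slc17a7), striatal projection neurons (Rgs9), interneurons of medial origin (Lhx6, Sst) and caudal origin (Adarb2), and immature neurons (Sox11).

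Libraries held 8217 to 16118 barcodes, with a median of 4469 to 5439 UMIs. The 436 nuclei had a median of 8560.5 UMIs, a lowest of 2206 and a highest of 51279, and summed to 4134806 UMIs. Libraries 1 to 6 gave 66, 84, 83, 72, 75 and 56 of them. Their share of nuclei was 0.575% (exact binomial interval 0.522 to 0.631%), and ran from 0.479% in library 1 to 0.695% in library 5. Among all GABA nuclei of the 3 GABA populations described below they made up 9.34%, from 7.03% in library 3 to 12.9% in library 5. Doublets were not removed, and 50 of the 436 (11.5%) lay among the highest 10% of doublet scores. For 10 members the 16 bases of the barcode also occurred in another library, and no 2 members shared them.

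The genes of the limits are described first, since they chose the nuclei. Gad2 had 1496 UMIs in the 436 nuclei and was found in 97.0% of them, and Gad1 had 614 UMIs in 72.5%. Baiap3 had 715 UMIs, or 173 CPM (UMIs of the gene per 1000000 UMIs of the same nuclei), with 165 CPM in the lowest and 191 CPM in the highest library. Most members therefore rested on little Baiap3 RNA: 258 held 1 UMI, 118 held 2 and 60 held 3 or more, up to 8. UMIs of these genes were also found in nuclei of other types, and whether as free RNA or through doublets was not tested. Gad2 was seen in 26.8% and Baiap3 in 5.25% of 2837 nuclei chosen by microglia genes, which had a median of 3453 UMIs and of which 24.9% lay among the highest 10% of doublet scores. Baiap3 was seen in 3.49% of 3609 nuclei chosen by the cortical glutamate transporter Slc17a7, at a median of 11195 UMIs. The limits of these cortical-type nuclei also asked for no Gad1 or Gad2 UMI and at most 1 of Slc17a6. Nuclei that held Gad RNA of another cell were thus left out, so the share may understate Baiap3 RNA from other cells. It was more common in the interneurons and Slc17a6 neurons described below, in 12.4% of 1772 and 27% of 200 nuclei. Its level there was 21.8 and 54.5 CPM, against 173 CPM in the members. Baiap3 RNA was thus not particular to the members. A member with a single Baiap3 UMI was thus not separable from a GABA nucleus that holds Baiap3 RNA of another cell.

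With all other limits met, 2462 nuclei failed on Baiap3 alone and 1753 on Gad1 and Gad2 alone. Of the latter, 276 had 2 Gad UMIs, just outside, against 151 members with 3. The limit on Adarb2 alone removed 197 nuclei, 9 of which had 10 UMIs against 13 members at 9. The limit on Rgs9 alone removed 178, 53 of them with 2 UMIs against 141 members with 1. Adarb2 stayed common among the members, with a UMI in 61.5%, while Slc17a6 was found in 3.21%, Lhx6 in 9.4%, Sst in 15.1% and Rgs9 in 32.3%.

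The GABA part of the label was set by the limits on Gad1 and Gad2, and Slc32a1 was found in 15.4% of the members. The subcortical part was not shown by the genes measured. A list of 17 transcription factors of the hypothalamus summed to 34.3 CPM, with 3 UMIs of Nkx2-1 in all 436 nuclei. In addition, some members carried genes of cortical interneurons or of glia, as described further on. They are called Baiap3 GABA nuclei below.

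They were set beside 3 other populations, whose nuclei were summed within each library. The first was 2462 GABA nuclei that met every other limit but had no Baiap3 UMI, at a median of 7051.5 UMIs. Some of these may hold Baiap3 RNA that was not captured. The populations that follow had no limit on Baiap3 and were not free of it, as given above. The second was 1772 interneurons with at least 2 UMIs of Lhx6, 3 of Sst or 10 of Adarb2, at 8450.5 UMIs. They were mostly of the Adarb2 kind, with a median of 38 Adarb2 UMIs and any Lhx6 UMI in 14.8%. The third was 200 Slc17a6 neurons, at 9832.5 UMIs. These were glutamatergic nuclei with at least 3 UMIs of Slc17a6, at most 1 of Slc17a7 and at most 1 of Gad1 and Gad2 together. They also had at most 1 UMI of Sox11 and of Tcf7l2, a marker of thalamic excitatory neurons, which was left out of their comparison. Values against them hold for this part of the Slc17a6 neurons only. A gene was called higher or lower if the mean CPM of both populations was at least 10, the ratio was 2-fold or more and the direction was the same in 6 of 6 libraries. No test was run, since the limits fix part of each difference and the libraries have no known groups. A summed level does not separate fewer nuclei with a gene from less RNA per nucleus. Shares of nuclei are given below for some leading genes. They stand beside the nuclei chosen by microglia genes or Slc17a7 and not beside these 3 populations.

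Against GABA nuclei without Baiap3, 61 genes were called higher, which is 0.626% of the 9746 genes compared, and 94 were called lower, which is 0.964%. The lower count was 144 when members had at least 2 Baiap3 UMIs and 238 without 54 members in subgroups led by glia genes, described further on. Against interneurons 74 of 9607 genes were higher (0.77%) and 104 were lower (1.08%), or 167 lower without those members. Against Slc17a6 neurons 64 of 9596 were higher (0.667%) and 38 were lower (0.396%). The lower count was 58 without library 4, 70 with at least 5 Gad UMIs and 64 with all upper limits except Adarb2 at 0. The median log2 ratio over all genes compared lay between 0.00 and 0.05. Among those called higher, 17, 19 and 10 were gene models with no symbol of their own. Both GABA comparisons use the Baiap3 GABA nuclei, and 34 genes were higher in both, 55.7% of the 61 and 45.9% of the 74. Of these, 6 were higher in all 3 comparisons, namely Nek10, Ecel1, Gabrg1, Plagl1, Gpc3 and Arhgap6.

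Prlr and Esr1, receptors for hormones, were higher in both GABA comparisons. Prlr (GRCm38, chr15:10177238-10349180), the receptor for prolactin, had 58.5, 83.3 and 99.2 CPM in the lowest, median and highest library of Baiap3 GABA nuclei. In GABA nuclei without Baiap3 it had 19.4, 25.5 and 31.8 CPM, and in interneurons 12.3, 20.9 and 31.0 CPM. The library ranges did not overlap in either case. The log2 ratios were 1.64 (1.43 to 1.84) and 2.00 (1.78 to 2.23). Slc17a6 neurons stood between, at 42.0 CPM, and their ratio of 0.95 did not reach 2-fold although all 6 libraries had the same direction.

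Esr1 (chr10:4611593-5005614) encodes oestrogen receptor alpha, a nuclear receptor that acts as a transcription factor. It had 30.8, 39.7 and 57.4 CPM in the lowest, median and highest library of Baiap3 GABA nuclei, 7.25, 11.2 and 15.5 CPM in GABA nuclei without Baiap3, and 12.3, 17.6 and 21.9 CPM in interneurons. Again no library of the one overlapped the range of the others, and the levels were 3.79-fold and 2.47-fold higher. Its level in Slc17a6 neurons, 22.7 CPM, spanned 9.36 to 43.5 CPM over libraries and overlapped with that of the Baiap3 GABA nuclei. The progesterone receptor Pgr (48.1 CPM against 36.3 CPM without Baiap3, log2 0.41) was not called. Over the whole list of hormone receptors and aromatase, 2 of the 11 genes compared, Esr1 and Prlr, were higher and 0 were lower against GABA nuclei without Baiap3, beside 0.626% and 0.964% of all genes, with a median log2 ratio of 0.30, and the summed level was not higher. Its log2 ratio was -0.04 (-0.078 to -0.0027, higher in 2 of 6 libraries) against GABA nuclei without Baiap3 and -0.02 (-0.06 to 0.02) against interneurons. The sign of the second sum turned when library 5 was left out, to 0.031.

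Hap1 (chr11:100347327-100356128) encodes huntingtin-associated protein 1, an adaptor for vesicle transport along microtubules. It reached 109, 130 and 168 CPM in the lowest, median and highest library, against 41.5, 46.4 and 62.3 CPM in GABA nuclei without Baiap3. Interneurons lay at 41.1, 47.6 and 56.7 CPM. The log2 ratios were 1.43 (1.28 to 1.59) and 1.44, with no overlap between libraries. Slc17a6 neurons had 72.4 CPM.

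**Figure D1:**
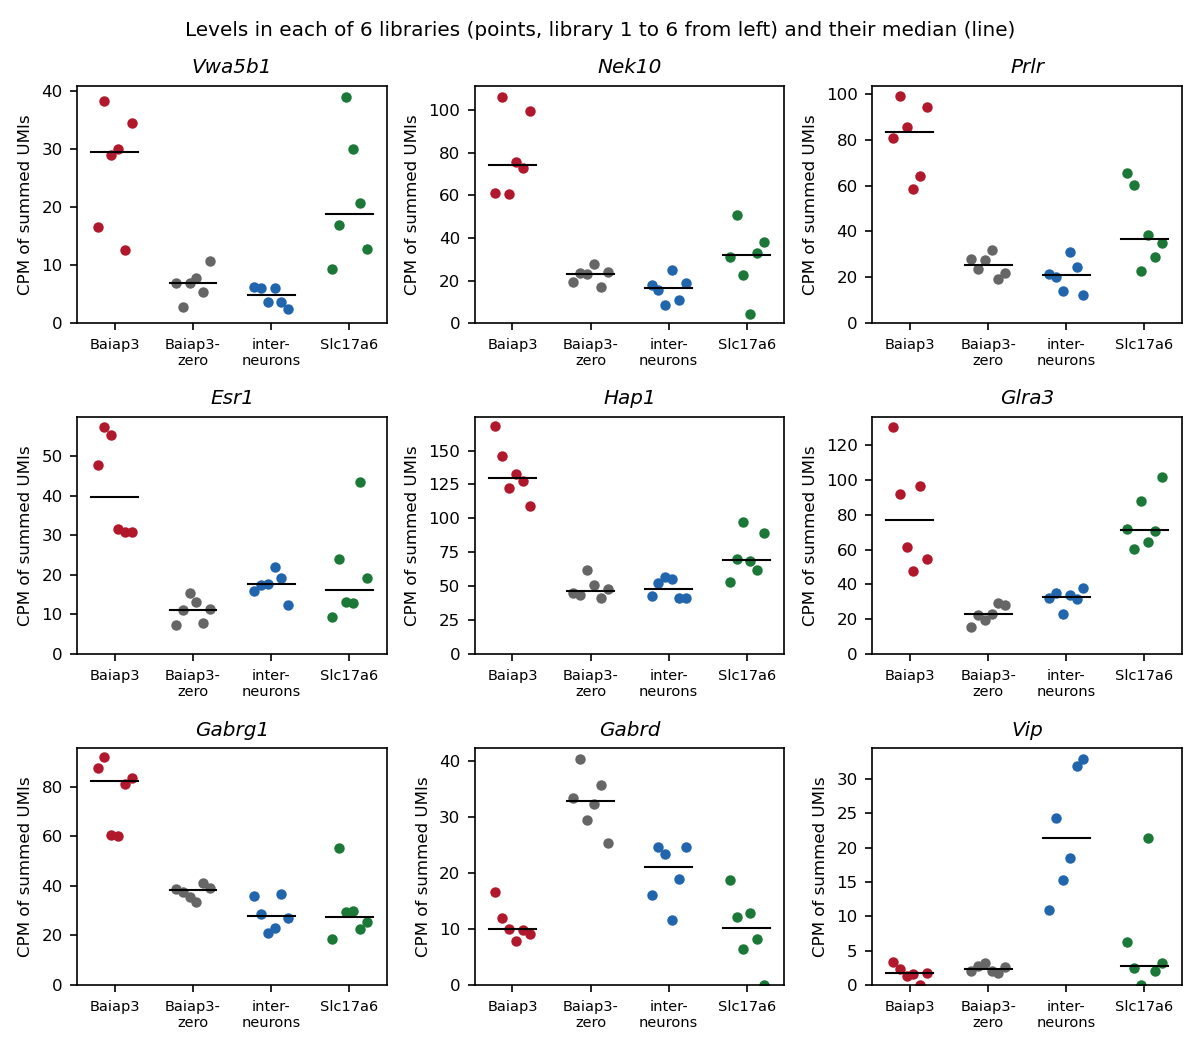
Level of 9 genes (vertical axes, CPM of summed UMIs, linear from 0) in Baiap3 GABA nuclei (red), GABA nuclei without Baiap3 (grey), interneurons (blue) and Slc17a6 neurons (green), with 1 point per library and a line at the median. For Prlr the 6 points of the Baiap3 GABA nuclei, from 58.5 to 99.2 CPM, lie above all points of the GABA nuclei without Baiap3, which end at 31.8 CPM.

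With the genes of the limits and gene models without a symbol of their own left out, Vwa5b1 had the highest ratio in both GABA comparisons. It lies at chr4:138565360-138635884, encodes a protein with a von Willebrand factor A domain, and was 4.22-fold higher than in GABA nuclei without Baiap3 and 5.74-fold higher than in interneurons. It had 12.6, 29.5 and 38.3 CPM in the lowest, median and highest library, against 2.77, 6.97 and 10.7 CPM without Baiap3 and 2.35, 4.8 and 6.18 CPM in interneurons. The level in Slc17a6 neurons was 20.7 CPM and was not called. Nek10 (chr14:14803415-15012059), a kinase of the NIMA family, had 60.5, 74.3 and 106 CPM against 16.8, 23.3 and 27.6 CPM without Baiap3, a log2 ratio of 1.81 (1.60 to 2.02). It was also 5.26-fold higher than in interneurons and 2.46-fold higher than in Slc17a6 neurons.

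Dpyd, the first enzyme of pyrimidine breakdown, was among the more abundant, at 341 CPM against 114 CPM without Baiap3 (log2 1.59, 1.49 to 1.68) and 120 CPM in interneurons. Ecel1, a membrane metallopeptidase of neurons, had 18.4 CPM against 6.43, 5.74 and 3.38 CPM in GABA nuclei without Baiap3, interneurons and Slc17a6 neurons. Gpc3, a cell-surface heparan sulphate proteoglycan, had 55.9 CPM against 24.3, 18.0 and 22.7 CPM. Efcab1, a calcium-binding EF-hand protein, had 45.7 CPM against 16.8 and 15.4 CPM in both GABA populations.

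Shares of nuclei with a gene were compared with those in other types in nuclei thinned to 3000 UMIs each, which 434 of the 436 allowed. Hap1 was then found in 35.9% of Baiap3 GABA nuclei (66.3% unthinned), against 9.9% of microglia nuclei and 6.8% of cortical-type nuclei. Nek10 was found in 23.3% (37.8% unthinned) against 5.7% and 8.2%, and Prlr in 15.7% (29.4% unthinned) against 2.5% and 1.3%. Vwa5b1 was found in 9.7% (17.9% unthinned) against 1.8% and 1.0%. These shares lay above those of both other types, of which the cortical-type nuclei had been chosen for having no Gad UMI. For Esr1 the share was 7.4% (5.1 to 10.2%, 21.8% unthinned), above the 3.1% of cortical-type nuclei but not separable from the 5.8% of microglia nuclei, which hold many high doublet scores.

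Receptor subunits for the fast inhibitory transmitters GABA and glycine differed within their family. Gabrg1 (chr5:70751047-70842617), a gamma subunit of GABA-A receptors, had 60.1, 82.3 and 92.0 CPM in the lowest, median and highest library, against 33.6, 38.3 and 41.0 CPM without Baiap3. It was higher in all 3 comparisons, with log2 ratios of 1.06, 1.46 and 1.33. Glra3, the glycine receptor alpha 3 subunit, had 47.4, 76.9 and 130 CPM against 15.7, 22.7 and 29.6 CPM without Baiap3 (log2 1.87) and 31.3 CPM in interneurons (1.37), while Slc17a6 neurons had nearly the same level, 75.3 CPM. Glra1 had 18.9 CPM against 7.39 CPM without Baiap3 (log2 1.35). In the other direction, Gabrd, the delta subunit of extrasynaptic GABA-A receptors, had 7.9, 9.94 and 16.5 CPM against 25.2, 32.9 and 40.3 CPM without Baiap3 (log2 -1.61, -2.08 to -1.17). Of the 17 genes of this list compared, 3 were higher and 1 was lower than without Baiap3, beside 0.626% and 0.964% of all genes. Against interneurons 2 were higher, Gabrg1 and Glra3, and 0 were lower, beside 0.77% and 1.08%, so that Glra1 and Gabrd were not called there. The sum was higher in 6 of 6 libraries than in either GABA population, at log2 0.21 and 0.16.

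Imprinted genes, expressed from 1 parental copy, were described as a list because many act in the hypothalamus and in growth. Of 22 compared with GABA nuclei without Baiap3, 6 were higher and 0 lower, beside 0.626% and 0.964% of all genes, with a median log2 ratio of 0.28. Zim1 (chr7:6671269-6696450), a zinc finger gene, had 9.48, 22.2 and 36.3 CPM in the lowest, median and highest library and 6.73 CPM without Baiap3 (log2 1.69). Plagl1, a zinc finger transcription factor, had 19.8 CPM against 8.47 CPM (log2 1.23), and Zdbf2 had 97.9 CPM against 47.3 CPM (1.05). Mest, Grb10 and Usp29 were also called, with Usp29 at 908 CPM against 449 CPM. Against interneurons 3 of 22 were higher, Zim1, Plagl1 and Zdbf2, beside 0.77% of all genes. The log2 ratio of the sum was 0.24 (0.23 to 0.25) and 0.23 (0.22 to 0.24), but Meg3 alone supplied 72% of it, at 14637 CPM, and by itself had a log2 ratio of 0.19. Against Slc17a6 neurons 1 of 23 was higher, Plagl1, beside 0.667% of all genes, and the summed ratio was -0.06.

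**Figure D2:**
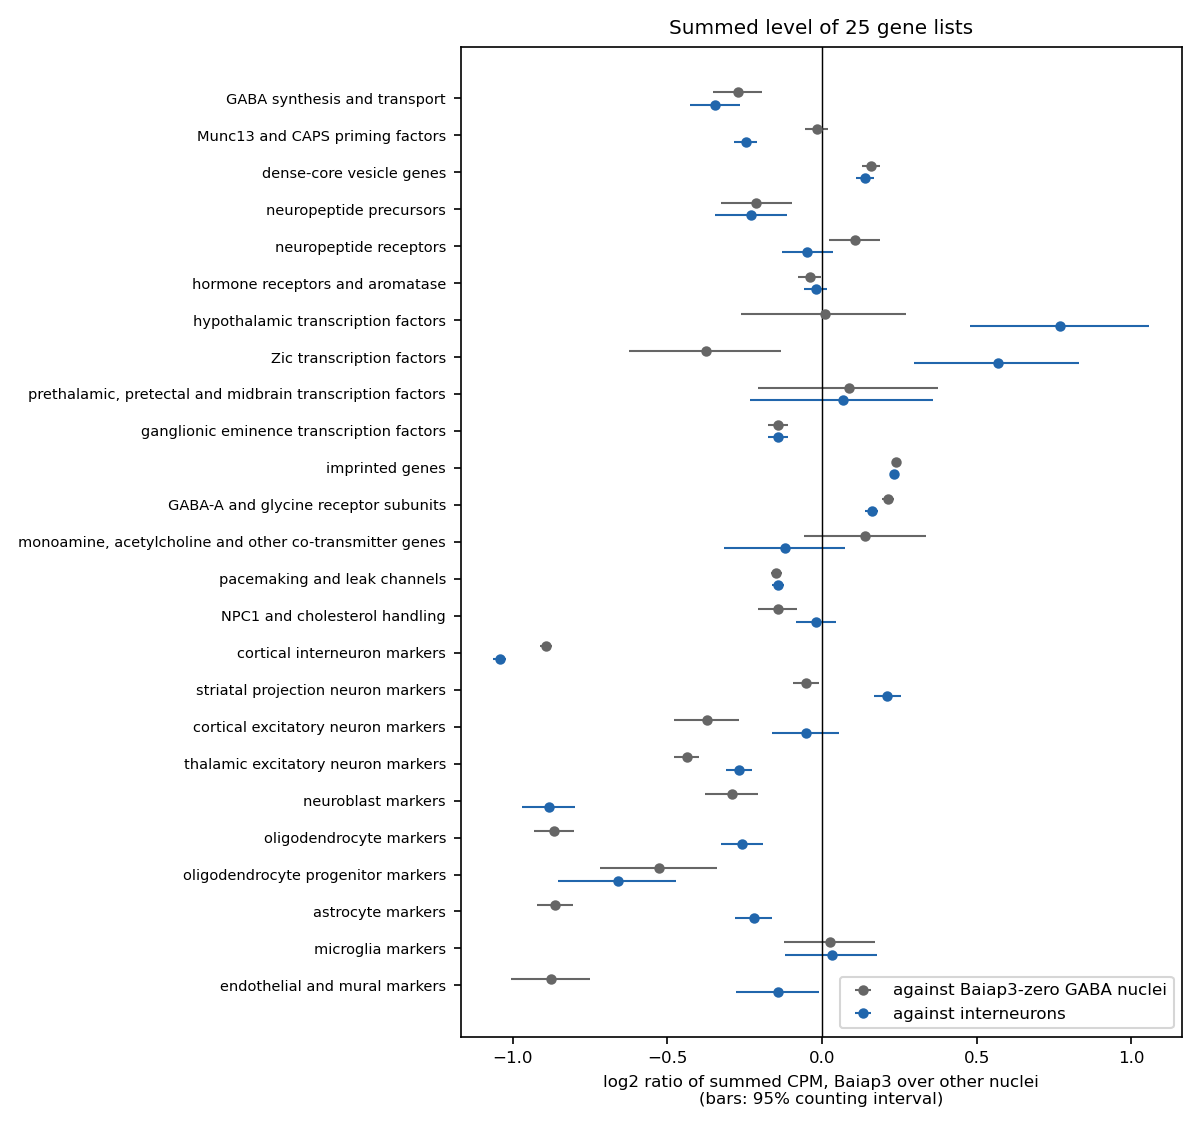
Log2 ratio of the summed CPM of each of 25 gene lists (horizontal axis), Baiap3 GABA nuclei over GABA nuclei without Baiap3 (grey) or over interneurons (blue). Bars are 95% counting intervals. Imprinted genes lie at 0.24 and 0.23, and cortical interneuron markers lie lowest, at -0.89 and -1.04.

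The secretory genes related to Baiap3 were described as lists. Dense-core vesicle genes, such as chromogranins and the convertases that cut peptide precursors, gave 0 calls in 16 genes against either GABA population, where the share over all genes was 0.626% higher and 0.964% lower without Baiap3 and 0.77% and 1.08% in interneurons, so that a count of 0 does not set the list apart. Their sum was 2945 CPM against 2638 and 2673 CPM, a log2 ratio of 0.16 (0.13 to 0.19) and 0.14 (0.11 to 0.17), higher in 6 of 6 libraries. Ptprn2, a membrane protein of these vesicles, had 1082 CPM against 773 CPM without Baiap3, a difference as large as that of the whole sum, and the median log2 ratio of the 16 genes was -0.0087 there and 0.07 in interneurons. Sv2c, a synaptic vesicle glycoprotein, was called higher only against Slc17a6 neurons (113 against 49.7 CPM). The Munc13 and CAPS priming factors, the family that Baiap3 is related to, gave 0 calls in 5 genes, with summed log2 ratios of -0.02 and -0.25. Within them, Cadps2 had 222 CPM against 125 CPM without Baiap3, higher in 6 of 6 libraries but under 2-fold.

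Peptide genes were sparse. The 38 precursors outside the limits summed to 179 CPM, 8 of them with no UMI in any member, and only 5 and 7 were abundant enough to be compared. Their sum was 207 CPM without Baiap3 and 209 CPM in interneurons, so that the members were higher in 1 and 0 of 6 libraries. In Slc17a6 neurons it was 172 CPM, with the members higher in 3 of 6 libraries. Vip was lower than in interneurons, with 7 UMIs in all members (1.69 against 20.9 CPM). Penk, the precursor of enkephalins, had 14.3 CPM, Cck 41.6 CPM and Nos1, the neuronal nitric oxide synthase, 23.7 CPM. A UMI of Agrp was seen in 27.8% of members, beside 30.5% for Cck and 11.9% for Penk. The entry for Agrp spans chr8:105566698-105637393, and whether its UMIs come from the peptide transcript was not tested. Among peptide receptors, Oprd1, the delta opioid receptor, was lower than without Baiap3 (19.6 against 51.8 CPM, log2 -1.40). Npffr1, a receptor for RFamide peptides, was higher than in interneurons (14.8 against 5.62 CPM, log2 1.39), and Hcrtr2, an orexin receptor, was lower (31.4 against 72.6 CPM, log2 -1.21).

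GABA synthesis and transport genes had 0 of 5 called against either GABA population, which shares of all genes near 1% would also give. Their sum was lower in 6 of 6 libraries, 372 CPM against 449 and 472 CPM. Against Slc17a6 neurons 2 of these genes were higher, among them Slc32a1 (18.4 against 8.2 CPM), beside 0.667% of all genes, but those neurons had been chosen for few Gad UMIs. Of pacemaking and leak channels, Kcnc2, a fast potassium channel, was lower than without Baiap3 (810 against 1715 CPM, log2 -1.08), and Trpc4 and Trpc6, cation channels, were higher than in Slc17a6 neurons (log2 1.53 and 1.32). Kcnc2, Trpc4 and Trpc6 were all uneven among the members. In the subgroups described further on, Trpc4 had 750 CPM in subgroup 4 and 110 CPM in the other members. Trpc6 had 211 CPM in subgroup 1 and 30.8 CPM in the other members. Kcnc2 had 3184 CPM in subgroup 1 and 457 CPM in the other members.

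Cortical interneuron markers summed to 5440 CPM against 10101 CPM without Baiap3 and 11199 CPM in interneurons, lower in 6 of 6 libraries each time, with 3 of 12 and 7 of 11 genes called lower, beside 0.964% and 1.08% of all genes. Erbb4, a neuregulin receptor, had 2068 CPM against 4499 and 5175 CPM, and Maf, a transcription factor, 62.4 CPM against 156 and 166 CPM. Reln had 130 CPM against 556 CPM in interneurons, whose limits had asked for interneuron genes. The GABA nuclei without Baiap3 thus carried more of these markers than the Baiap3 GABA nuclei, although both passed the same limits on Lhx6, Sst and Adarb2. Against Slc17a6 neurons the same list was higher in 6 of 6 libraries, 5440 against 3209 CPM, with Kcnmb2 and Sox6 called. It summed to 1100 CPM in cortical-type nuclei and 3162.5 CPM in microglia nuclei. Of Baiap3 GABA nuclei, 96.3% had 5 or more UMIs of it. That share was 93.2% without Baiap3, 99.3% in interneurons and 95.5% in Slc17a6 neurons. It was also 82.3% in cortical-type and 64.1% in microglia nuclei, so it does not set the Baiap3 GABA nuclei apart. The part of these markers in the other results was not tested.

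With the genes of the limits and unnamed gene models left out, the lowest ratios against GABA nuclei without Baiap3 were those of Pde5a, the cyclic GMP phosphodiesterase (11.1 against 50.6 CPM, log2 -2.19), Mecom, a zinc finger transcription factor (14.5 against 64.2 CPM, -2.15), Eya4 (28.1 against 104 CPM, -1.89), the hyaluronan-binding protein gene Cemip (64.8 against 231 CPM, -1.83) and Pparg, a nuclear receptor of lipid metabolism (15.7 against 54.9 CPM, -1.80). Against interneurons, after Vip, they were Col14a1 (2.4 against 26.3 CPM, log2 -3.44), Frem1 (-2.88), the hyaluronan link protein gene Hapln1 (-2.77), Igf1 (-2.75) and the receptor kinase gene Kit (14.8 against 97.9 CPM, -2.73). Astrocyte, oligodendrocyte and endothelial markers were also lower than without Baiap3, at log2 ratios of -0.86, -0.87 and -0.88. Each of those lists ranged widely over libraries of Baiap3 GABA nuclei, oligodendrocyte markers from 102 to 941 CPM and astrocyte markers from 363 to 1102 CPM, and their part in these ratios was not tested.

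Slc17a6 neurons were chosen with few Gad1 and Gad2 UMIs, which fixes part of the difference from them. With the genes of the limits left out, the highest ratio was that of Dlx6os1. It is transcribed in the Dlx5 and Dlx6 locus of forebrain GABA neurons, and had 97.0 CPM against 6.27 CPM (log2 3.95, 3.16 to 4.87). Dlx6os1 was called lower than in interneurons, however, and was not called against GABA nuclei without Baiap3. Sox6 had 287 against 61.3 CPM (log2 2.23), Rarb, a retinoic acid receptor, 123 against 39.6 CPM (1.64), and Nrxn3, a synaptic adhesion molecule, 7966 against 2473 CPM (1.69). Rarb was uneven among the members, with 1373 CPM in subgroup 8, described further on, and 82.7 CPM in the other members. Dlx6os1, Sox2ot and Dlx1as overlap or lie antisense to coding genes, and the strand setting of the counting was not stated, so these values are uncertain. The lower genes included transcription factors of glutamatergic nuclei. Sim1, which marks paraventricular neurons of the hypothalamus, had 2.18 against 55.0 CPM (log2 -4.66), and Ebf3 had 3.1 against 53.1 CPM (-4.08). Lmx1a had 3 UMIs in all members against 22.7 CPM, with a log2 ratio of -4.97 whose counting interval ran from -7.29 to -3.33.

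Transcription factors did not place the Baiap3 GABA nuclei as a whole in 1 region. The hypothalamic list had the same level without Baiap3 (34.3 against 34.1 CPM) and was higher than the 20.1 CPM of interneurons, at a log2 ratio of 0.77 (0.48 to 1.06) and in 6 of 6 libraries. Against Slc17a6 neurons the sum was lower, 34.3 against 90.2 CPM (log2 -1.39, higher in 0 of 6 libraries). Sim1 was the only gene of the list abundant enough to be compared there, at log2 -4.66. Its difference in CPM, given above, was nearly as large as that of the whole sum. None of its genes was abundant enough to be called against interneurons. Zic factors summed to 38.7 CPM against 50.1 CPM without Baiap3 and 26.1 CPM in interneurons. Factors of the ganglionic eminences, the embryonic source of forebrain GABA neurons, summed to 2267 CPM against 2503 and 2504 CPM. Within them Tshz2 was higher (440 against 210 and 189 CPM). Maf was lower than without Baiap3, and Prox1, Tshz1, Maf and Npas1 were lower than in interneurons, where the median log2 ratio of the list was -0.43. The summed log2 ratio to interneurons was -0.14 with 3 of 6 libraries in each direction, and it turned to 0.065 when library 3 was left out. Meis2 had 484 CPM against 216 CPM in Slc17a6 neurons.

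Npc1, the gene mutated in the Npc1-/- mice, was measured in the pooled Baiap3 GABA nuclei at 25.4, 34.3 and 39.6 CPM in the lowest, median and highest library. The sum was 33.4 CPM, against 33.9, 32.9 and 38.1 CPM in the 3 other populations. No library was assigned to a genotype from these values. Of 16 genes of cholesterol handling compared, 0 were called higher and 0 lower against either GABA population, which does not set the list apart from all genes (0.626% and 0.964%, 0.77% and 1.08%), and the log2 ratios of their sum were -0.14 and -0.02.

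The GABA nuclei were split further by Baiap3 UMIs per nucleus, the value that had chosen them, and the genes given here were already called between 0 and 1 or more UMIs, so the levels are a description. From 0 to 1, 2 and 3 or more UMIs, with 2462, 258, 118 and 60 nuclei, Dpyd had 114, 235, 414 and 545 CPM. Prlr followed with 26.1, 67.2, 80.5 and 127 CPM, Gabrg1 with 37.2, 61.7, 83.6 and 116 CPM and Zim1 with 6.73, 16.9, 25.3 and 30.9 CPM. Hap1 (49.8, 122, 142 and 162 CPM) and Glra3 (22.0, 74.5, 86.0 and 91.4 CPM) differed mostly between 0 and 1 UMI. Nek10 had 22.6 and then 81.3, 77.3 and 78.1 CPM, flat within its intervals once any Baiap3 UMI was present, and Esr1 had 11.5, 38.8, 52.9 and 41.3 CPM. Gabrd ran the other way, from 33.1 to 12.3, 8.68 and 10.3 CPM. Summed cortical interneuron markers went from 10101 to 5948, 5198 and 4254 CPM. The median UMI count also grew, from 7051.5 to 7760, 9169 and 9729, and its part in these orders was not tested.

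**Figure D3:**
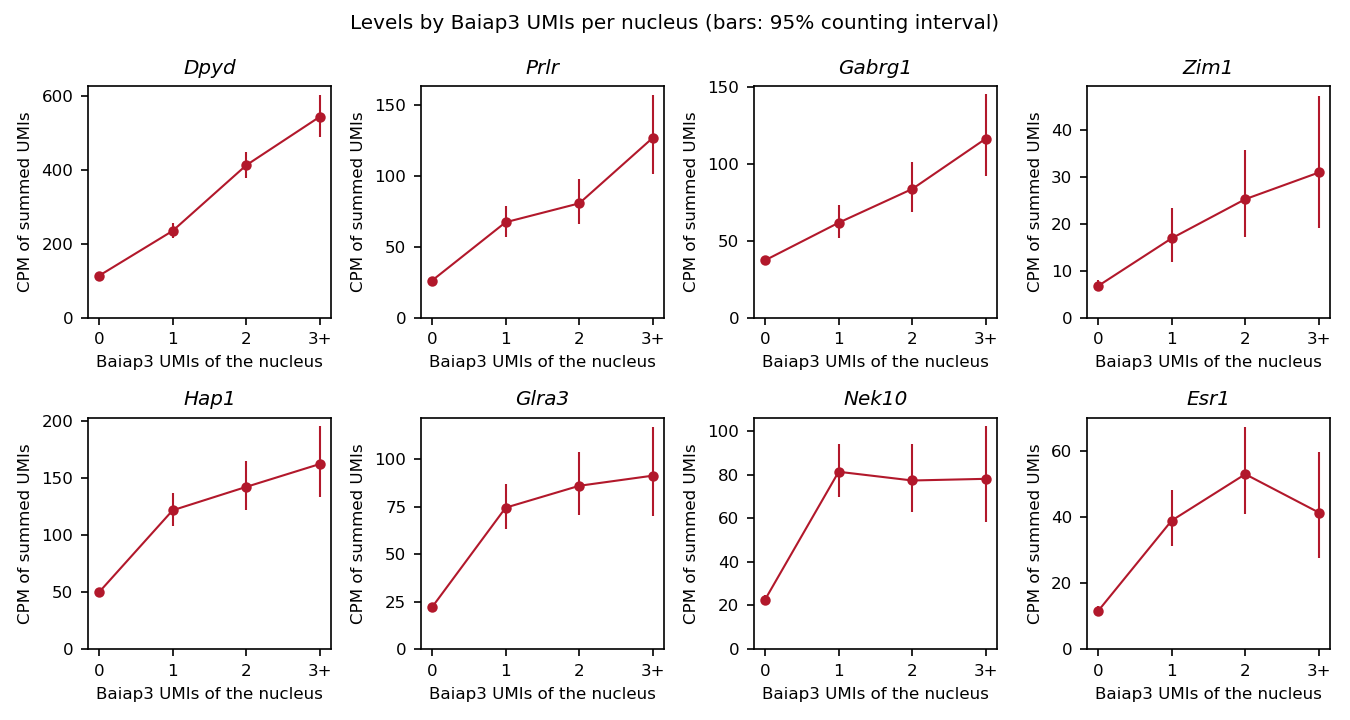
Level of 8 genes (vertical axes, CPM of summed UMIs, linear from 0) by the number of Baiap3 UMIs in the nucleus, 0 to 3 or more (horizontal axes). Points are pooled over libraries and bars are 95% counting intervals. Dpyd goes from 114 to 545 CPM, whereas Nek10 stays between 77.3 and 81.3 CPM from 1 UMI on.

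Clustering the 436 nuclei on their own gave 10 subgroups at the chosen resolution. They are numbered from 0, and their leading genes are the ones that defined them. At resolutions of 0.5 and 2 there were 7 and 15 subgroups, so their number is a setting. Subgroup 0, with 114 nuclei, was led by the long noncoding RNA Rmst at 2.96-fold over the other members and by Ache, which encodes acetylcholinesterase. It held 18.1 to 36% of the members of a library. The prethalamic, pretectal and midbrain factors summed 3.10-fold over the other members there, on 60 UMIs, and the hypothalamic factors 1.96-fold, on 54 UMIs. Over all members Pax6 supplied 52.5% of the UMIs of the first list and Isl1 40.8% of those of the second. Subgroup 6, described below, also had the first list at 1.98-fold.

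Subgroup 1, with 55 nuclei, was led by Col19a1 at 9.89-fold, Kcns3 and Maf, and had cortical interneuron markers at 3.66-fold. This went against the label for those nuclei. Prlr was at 19 CPM, Hap1 at 47 CPM and Vwa5b1 had no UMI in this subgroup. Subgroup 9, with 10 nuclei led by Gna14, Egfros and Pthlh, had the same markers at 3.78-fold. Subgroup 8, with 17 nuclei, was led by Mhrt, Zar1l and Rarb, the last at 16.6-fold, with striatal projection neuron markers at 3.61-fold. Prlr had no UMI in either of these 2 small subgroups.

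Prlr was highest in subgroups 3, 4 and 2. Subgroup 3, with 49 nuclei led by March3 at 5.47-fold, Esyt3 and Prox1, had 195 CPM of Prlr, 110 CPM of Esr1 and 202 CPM of Hap1. Subgroup 4, with 48 nuclei led by Ano1 at 29.5-fold and Prdm16 at 22.1-fold, had Zic factors at 5.02-fold and 122 CPM of Prlr and 76 CPM of Vwa5b1. Subgroup 2, with 50 nuclei led by Ebf1 at 6.19-fold, had 109 CPM of Prlr and 155 CPM of Nek10. Subgroup 5, with 39 nuclei, was led by Scube1 at 6.8-fold, Syt6 and Kcnh3. Baiap3 itself ranged from 126 to 220 CPM over the 10 subgroups and was highest in subgroup 0.

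Subgroups 6 and 7 were led by genes of glia. Subgroup 6, with 30 nuclei led by Lgi4 at 33.6-fold, had astrocyte markers at 6.70-fold and endothelial and mural markers at 7.21-fold, and 60% of its nuclei lay among the highest 10% of doublet scores. Subgroup 7, with 24 nuclei led by Nckap1l at 108-fold, had microglia markers at 9.55-fold and oligodendrocyte progenitor markers at 7.13-fold, a median of 12132 UMIs, and 70.8% of its nuclei among those scores. Together they are 54 of the 436 nuclei. Without them the share was 0.504% of nuclei, and 69 genes were higher than without Baiap3, 57 of them among the 61. In the other direction 238 genes were then lower, 85 of them among the 94, and against interneurons 167 were lower, 96 of them among the 104. Only members were removed for these counts. The other populations kept any nuclei with glia genes, and the part of this in the higher counts was not tested.

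**Figure D4:**
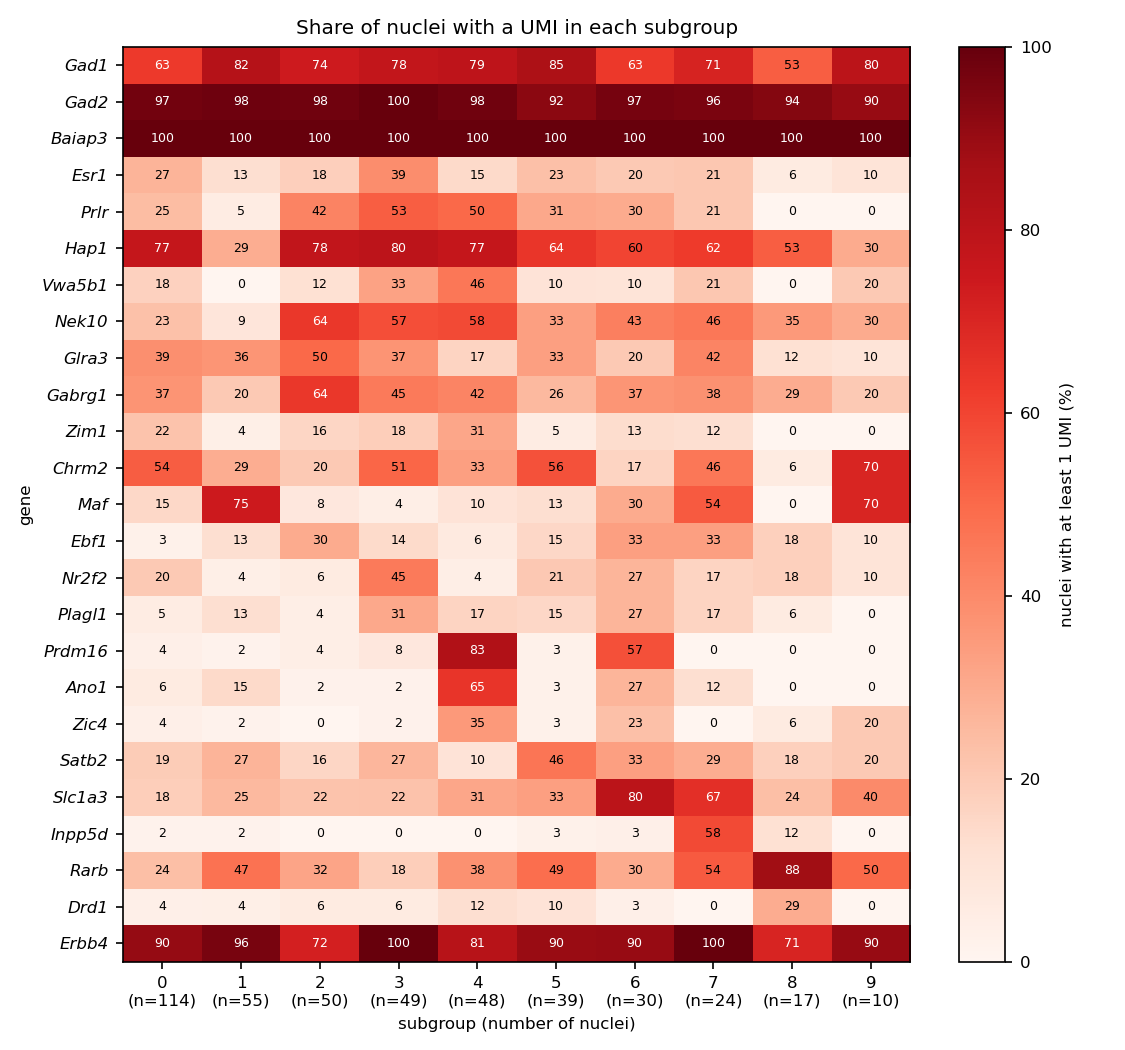
Share of nuclei with at least 1 UMI of each gene (rows, colour and printed percent) in each of the 10 subgroups of Baiap3 GABA nuclei (columns, with their number of nuclei), without thinning. Prlr was found in 53% of subgroup 3 and in 0% of subgroups 8 and 9.

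Promoters of the genes higher in both GABA comparisons were read from RefSeq for GRCm38.p6 as the 250 bases before the start of the gene. Of the 34 genes, 23 had an entry. The GC box GGGCGG, read on both strands, was in 7 of the 23 (30.4%) and in 35.3% of 25821 promoters of this length. The homeobox core TAATTA was in 2 of 23 against 5.66%, the E-box CACGTG in 3 of 23 against 6.85%, and the palindromic oestrogen response element in 0 of 23 against 0.0581%. On GRCm38 the Baiap3 gene lies on chromosome 17 from 25242659 to 25256364, and its promoter is shown as that of the gene that chose the nuclei. Those of Gpc3 and Dpyd are shown as examples with GC boxes, which are in capitals as CCGCCC, the same motif read from the other strand. Each is written 5′ to 3′ on the strand of its gene.
Baiap3, chr17:25256365-25256614, minus strand, with none of these motifs: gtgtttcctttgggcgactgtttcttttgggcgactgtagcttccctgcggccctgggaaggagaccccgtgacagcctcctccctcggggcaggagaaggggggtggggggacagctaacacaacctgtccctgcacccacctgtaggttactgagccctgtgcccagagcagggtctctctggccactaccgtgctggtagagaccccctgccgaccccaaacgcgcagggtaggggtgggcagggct
Gpc3, chrX:52613975-52614224, minus strand, with 3 GC boxes: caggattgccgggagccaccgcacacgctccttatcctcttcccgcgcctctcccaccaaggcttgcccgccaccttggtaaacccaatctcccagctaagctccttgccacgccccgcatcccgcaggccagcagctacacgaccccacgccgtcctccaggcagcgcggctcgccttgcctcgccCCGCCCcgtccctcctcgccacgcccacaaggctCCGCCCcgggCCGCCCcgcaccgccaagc
Dpyd, chr3:118561930-118562179, plus strand, with 2 GC boxes: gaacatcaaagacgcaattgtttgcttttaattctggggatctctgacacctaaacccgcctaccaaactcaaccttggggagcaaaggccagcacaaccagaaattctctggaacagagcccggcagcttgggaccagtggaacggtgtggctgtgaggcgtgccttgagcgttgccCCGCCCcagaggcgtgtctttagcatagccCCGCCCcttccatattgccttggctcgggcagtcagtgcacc
These matches are letters in a window and not binding sites.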

How the data were processed

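Nuclei of 6 forebrains were sequenced by the 10x Genomics 3' method. The authors deposited 1 matrix of raw UMI counts per gene and barcode, 32285 genes by 75878 barcodes and 497750379 UMIs in all, with no normalisation. The processing notes of the submitters name Cell Ranger 2.1.1 and mm10, the matrix header names cellranger 6.0.0, and the study's methods name STARsolo on GRCm38, removal of empty droplets and doublets, and later imputation. Which of these made the matrix, and whether introns and strand were counted, were not given in the sources used here.

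Barcodes with at least 10% mitochondrial UMIs were left out. UMIs were summed per library and population and divided by the summed total (CPM). Intervals are 95% exact Poisson or binomial intervals, and ratio intervals come from the exact binomial interval of the 2 counts. Genes named are, for each comparison, drawn from the 12 called genes of highest and 8 of lowest ratio without limit genes, Xist, Tsix, mitochondrial genes and gene models, and the called genes of each list. A few of these genes are not reported here. Further list members are named as examples, and those in the order of Baiap3 UMIs and in the subgroups were picked after their values were seen. Subgroups used the 2000 most variable genes, 20 principal components, 15 neighbours and Leiden clustering at resolution 1. Doublet scores were simulated, but their own threshold marked almost no barcode, so the score was used only by its highest 10%. The members and gene lists were chosen with earlier results of these data known. The calls were also run on simulated Poisson counts, drawn from 1 profile shared by all libraries. That simulation held no spread between libraries, no subgroups and no doublets, so it cannot show how the calls fare with these. Alternatives varied the limits, the scaling, the CPM minimum, the doublet score and each library. Gene positions are those of GENCODE M21. Python 3.11.15, numpy 2.4.6, scipy 1.17.1, pandas 2.3.3, scanpy 1.11.5, leidenalg 0.10.2 and matplotlib 3.10.9 were used.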

Additional observations from a re-analysis of the deposited data

How the results depend on the processing

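No paired analysis was possible because the replicate numbers of the WT and Npc1-/- mice could not be matched to libraries. The populations themselves were compared within each of the 6 libraries, by direction and with no test. The share of 0.575% became 0.235% with at least 2 Baiap3 UMIs, 0.241% with at least 5 Gad UMIs and 0.191% with the upper limits at 0. That last setting put Slc17a6 and Slc17a7, Rgs9, Lhx6, Sst and Sox11 at 0 and left Adarb2 at 9. These settings changed the members alone, while the other populations kept their limits. Without the 2 glia-gene subgroups, an alternative chosen after seeing the data, the share was 0.504%. Leaving out 1 library gave 0.555 to 0.596%. With a mean of at least 50 CPM, higher and lower genes numbered 19 and 25 against GABA nuclei without Baiap3, 20 and 44 against interneurons, and 25 and 4 against Slc17a6 neurons. With no minimum they numbered 125 and 448, 166 and 314, and 180 and 88. Both settings change which genes are compared, and the part of this in those counts was not tested. Lower genes against GABA nuclei without Baiap3 numbered 144 with at least 2 Baiap3 UMIs and 238 without the glia-gene subgroups, and those against interneurons 167 without them. The glia-gene subgroups were removed from the members alone. Lower genes against Slc17a6 neurons numbered 70 with at least 5 Gad UMIs, 64 with limits at 0, and 42 to 58 with 1 library left out, the most without library 4, where 5 of 5 libraries had to share a direction. For these the cause was not tested.

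The summed ratio of dense-core vesicle genes to interneurons, 0.14, was 0.094 with limits at 0, 0.085 when scaled by the median ratio, 0.10 as a mean per nucleus, and 0.11 to 0.16 with 1 library left out. That of hormone receptors, -0.02, was 0.044 with at least 5 Gad UMIs, -0.070 with limits at 0, -0.075 when scaled by the median ratio, and -0.050 to 0.031 with 1 library left out, the highest without library 5. That of imprinted genes, 0.23, was 0.26 with at least 2 Baiap3 UMIs, 0.26 with at least 5 Gad UMIs, 0.30 with limits at 0, 0.18 scaled by the median ratio, 0.30 per nucleus, 0.29 without the glia-gene subgroups, and 0.16 to 0.26 with 1 library left out, the least without library 3. Signs turned for ganglionic eminence factors (-0.21 to 0.065 with 1 library left out, above 0 without library 3), striatal markers with limits at 0 (-0.057), and endothelial and mural markers with at least 2 Baiap3 UMIs (0.042), at least 5 Gad UMIs (0.16) or the highest doublet scores removed (0.15). The main comparisons left out genes whose mean over both populations was under 10 CPM.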

Other observations

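The following 6 genes known from motile cilia were picked after their values were seen, from those called higher than in interneurons, so that they say nothing of cilia genes as a group. Cfap44 had 21.3 against 7.41 CPM (log2 1.52), Dnah5 16.7 against 6.21 CPM (1.43), Spag16 19.6 against 8.78 CPM (1.16), Spag6l 39.2 against 18.4 CPM (1.09) and Cfap61 16.4 against 8.01 CPM (1.04), and Drc1 had 31.7 CPM (1.41), each higher in 6 of 6 libraries. Drc1 was also called against GABA nuclei without Baiap3 (log2 1.15) and the other 5 were not, at 0.39 to 0.88. Against Slc17a6 neurons none of the 6 was called, at 0.15 to 1.10. Foxj1, the transcription factor of multiciliated cells, had 1.94 CPM in Baiap3 GABA nuclei and 1.61 CPM in interneurons.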
